A study of Homo sapiens with 17 samples.

Results

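The interleukin-1 (IL-1) axis was followed through 8 genes chosen by name: the ligands *IL1A*, *IL1B* and *IL33*, the receptor antagonist *IL1RN*, the receptor chains *IL1R1*, *IL1RAP* and *IL1RL1*, and the receptor-proximal kinase *IRAK2*. These are 8 of the 62754 genes in the count tables, and 7 of them, all but *IL1RN*, passed the filter on low counts that left 19473 genes to test. Expression was measured by stranded, poly(A)-selected RNA sequencing of 17 libraries from IMR90 ER:RAS cells, a human lung fibroblast line infected with a retroviral vector for an ER:RAS fusion protein that carries the RASG12V mutation. 4-Hydroxytamoxifen (4OHT) switches the fusion on and the cells enter oncogene-induced senescence. All groups carried the fusion and all received an siRNA: DMSO with a non-targeting siRNA (siNT, n = 5), 4OHT with siNT (n = 6), and 4OHT with an siRNA against *SMARCA4* (siSMARCA4, n = 6), which encodes the BRG1 motor subunit of SWI/SNF chromatin remodellers. RNA was taken at day 7 of 4OHT or DMSO. No DMSO library received siSMARCA4, so the knockdown was measured only in 4OHT-treated cells. The comparisons asked how the axis changed when RAS was switched on and what loss of *SMARCA4* added to that.

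IL-1α and IL-1β are the agonists of the family. Both bind the receptor chain IL1R1, which then recruits the shared accessory chain IL1RAP, and the intracellular TIR domains of the pair assemble MYD88 with IRAK kinases to switch on NF-κB and MAP kinases. IL1RN occupies IL1R1 without recruiting IL1RAP and so blocks both agonists, while IL-33 uses a receptor of its own, IL1RL1 (ST2), with the same accessory chain. In senescent fibroblasts IL-1α acts at the cell surface as an upstream driver of the senescence-associated secretory phenotype (SASP), whose best known products are IL-6 and IL-8. RNA says nothing on cleavage or release, which IL-1β needs.

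Each library name also held a number after the siRNA, 2 or 4, called the siRNA number here, and a tag that ended in V or VM. The numbers were given to siNT and to siSMARCA4 alike, so a siNT and a siSMARCA4 library with the same number received different siRNAs and share only that number. The labels do not say whether the number on siNT marks different siRNAs, nor what V and VM mean. VM was carried by 6 of 6 libraries in 4OHT siNT, 3 of 6 in siSMARCA4 and 3 of 5 in DMSO. Library totals ran from 39109479 to 68978119 counts. *SMARCA4* itself lay between 253 and 286 counts-per-million units (CPM) in the 4OHT siNT libraries and between 68.4 and 127 CPM in the siSMARCA4 libraries, a 3.04-fold fitted fall with no overlap. All 10 fibroblast markers were detected in every group, and their summed level had medians of 27147, 15529 and 9512 CPM in DMSO, 4OHT siNT and 4OHT siSMARCA4, and edgeR called 8 of the 10 lower in each step (27.4% and 13.8% of all genes were called lower in these comparisons). The summed level of 8 monocyte and macrophage markers never passed 1.53 CPM in any library, with *AIF1* at 0 counts in 4OHT siNT and *TYROBP* in 4OHT siSMARCA4. The 4 endothelial markers summed to 0.85 to 1.94 CPM in DMSO and 2.52 to 6.25 CPM in the 4OHT libraries. Epithelial markers stayed under 1.3 CPM, and the 4 mast cell markers summed to at most 18.0 CPM, reached in DMSO. That sum was mostly *KIT*, which averaged 13.25 CPM in DMSO and 0.441 CPM in 4OHT siNT. *CPA3* went the other way at a low level, from 0.117 to 0.769 CPM. The part of such cells in the results was not tested. In bulk RNA, fewer expressing cells and less RNA per cell cannot be told apart.

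*IL1A* and *IL1B* were close to silent in DMSO and rose more than any other member when RAS was switched on. *IL1B* (chr2:112829751-112836816, minus strand, GRCh38) measured 1.34, 0.318, 0.625, 0.872 and 0.722 CPM in the 5 DMSO libraries. In 4OHT siNT it had a low of 694.5, a median of 869.7 and a high of 1270 CPM. *IL1A* (chr2:112773925-112784493, minus strand) measured 0.192, 0.0398, 0.0520, 0.0968 and 0.151 CPM in DMSO, from 2 to 11 counts a library, and 44.7, 55.2 and 74.4 CPM as low, median and high in 4OHT siNT. The groups did not overlap for either gene, and library 4-2VM was the highest of the 4OHT siNT libraries for both. The fitted changes were 1132-fold for *IL1B* (log2 10.14, SE 0.48, edgeR adjusted p 3.82e-12) and 520-fold for *IL1A* (log2 9.02, SE 0.34, adjusted p 1.96e-13). Across the 7 tested members 6 were called higher in 4OHT siNT than in DMSO and 0 lower, where 54.4% of the 19473 genes were called in either direction and 27% higher (27.4% lower). *IL1A*, *IL33* and *IL1RL1*, at 2 to 11, 0 to 3 and 6 to 9 counts a DMSO library, passed the filter on low counts only through the 4OHT groups where they were high, so the counts of members called or not overlapping against DMSO are descriptions and support nothing about the set.

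**Figure D1:**
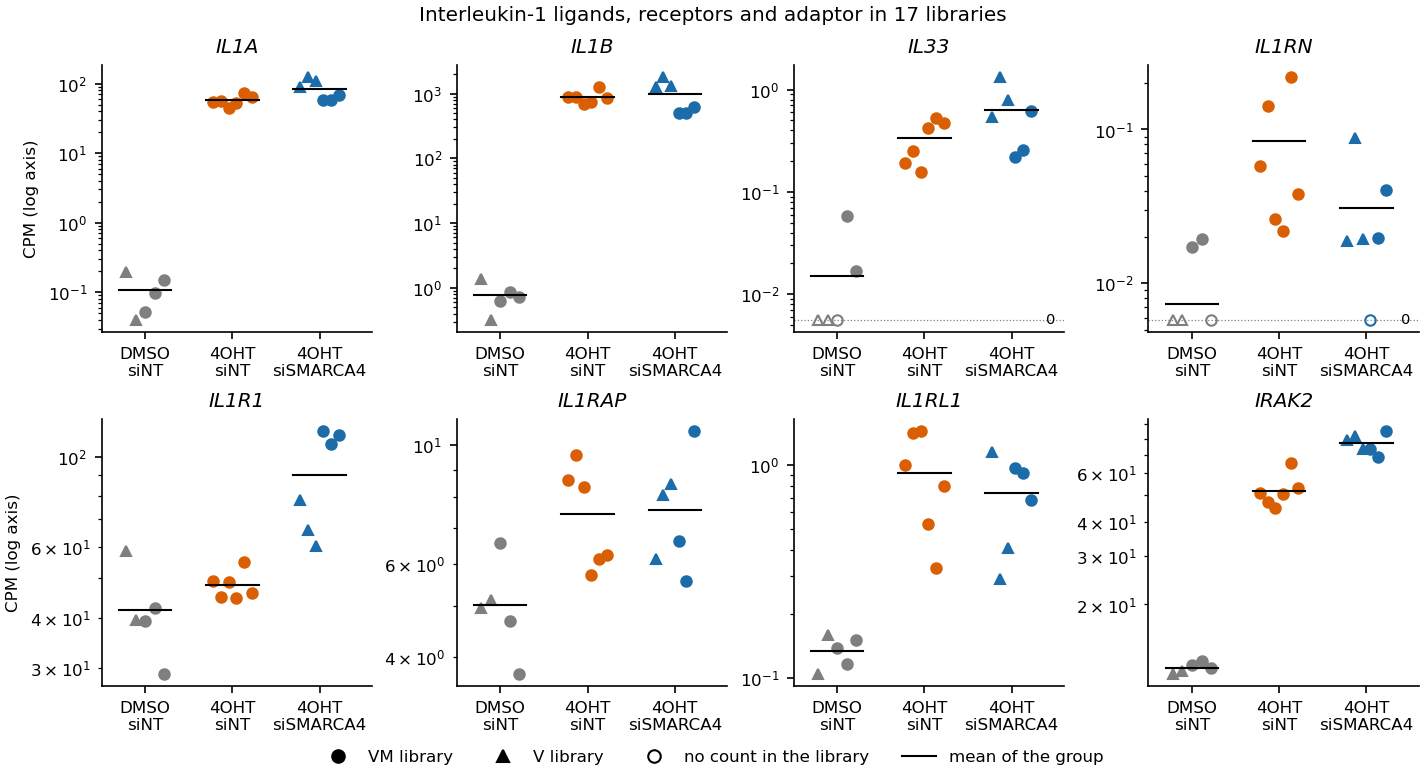
Expression of the 8 members in CPM on a log axis, 1 point per library in the 3 groups, with circles for VM and triangles for V libraries, a line at each group mean and open symbols on the dotted line for libraries without a count. *IL1A* and *IL1B* rise from at most 0.192 and 1.34 CPM in DMSO to at least 44.7 and 506.5 CPM in every 4OHT library, and in siSMARCA4 the V and VM libraries of *IL1B* and *IL1R1* lie apart.

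Per kilobase of annotated exon, which allows levels of different genes to be set side by side, the order of the members changed between the groups. In DMSO *IL1R1* led at 5.85 ± 1.49 CPM per kb (SD, n = 5), followed by *IRAK2* at 3.44 ± 0.141, *IL1RAP* at 0.447 ± 0.091 and *IL1B* at 0.258 ± 0.125, and the ranges of the last pair overlapped. *IL1A* followed at 0.0527 ± 0.0321, in a range that overlapped *IL1RL1* at 0.0233 ± 0.0040, with *IL33* and *IL1RN* lowest. In 4OHT siNT *IL1B* led at 294.8 ± 67.9 CPM per kb (SD, n = 6), followed by *IL1A* at 28.5 ± 5.08, *IRAK2* at 15.1 ± 2.10, *IL1R1* at 6.77 ± 0.547 and *IL1RAP* at 0.663 ± 0.144. *IL1RL1* at 0.159 ± 0.0791 and *IL33* at 0.103 ± 0.0481 overlapped, and *IL1RN* was last at 0.0225 ± 0.0212, in a range that overlapped both *IL33* and *IL1RL1*. The first 5 stood in the same order in 4OHT siSMARCA4, with *IL1B* at 332 ± 176, *IL1A* at 41.7 ± 13.5, *IRAK2* at 22.4 ± 1.81 and *IL1R1* at 12.7 ± 3.52 CPM per kb, while *IL33* at 0.192 ± 0.124 and *IL1RL1* at 0.128 ± 0.0584 overlapped. Exon length here is the union of all annotated exons, so a gene that uses a short isoform is placed too low.

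The bases just before the start sites are shown for the 2 ligands that were switched on and for 2 members that were already expressed in DMSO. RefSeq promoter windows (GRCh38.p14) matched all 8 members, and the 250 bases upstream of the start of the canonical transcript were searched on both strands for an AP-1 site (TGANTCA), an NF-κB-like site (GGG and TTCC with any 3 bases between), a C/EBP-like site (TTGCNNAA), TATAAA and a cAMP response element (TGACGTCA). Of 35116 promoter windows over all genes, 6.57%, 5.67%, 9.05%, 10.7% and 1.65% held them, in that order. Matches are in capitals, and coordinates are of the printed bases, 5′ to 3′ on the strand of the gene.
IL1A, chr2:112784494-112784743, minus strand: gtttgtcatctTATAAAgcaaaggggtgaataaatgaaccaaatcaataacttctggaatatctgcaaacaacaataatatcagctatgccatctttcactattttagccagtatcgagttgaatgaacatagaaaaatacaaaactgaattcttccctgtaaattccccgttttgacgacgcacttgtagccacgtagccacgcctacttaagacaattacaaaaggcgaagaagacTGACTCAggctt
IL1B, chr2:112836780-112837029, minus strand: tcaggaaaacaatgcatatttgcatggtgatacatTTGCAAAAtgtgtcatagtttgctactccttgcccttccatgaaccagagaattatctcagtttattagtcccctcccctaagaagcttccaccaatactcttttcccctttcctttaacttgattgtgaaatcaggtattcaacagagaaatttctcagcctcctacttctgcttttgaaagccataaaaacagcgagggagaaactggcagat
IL1R1, chr2:102142496-102142745, plus strand: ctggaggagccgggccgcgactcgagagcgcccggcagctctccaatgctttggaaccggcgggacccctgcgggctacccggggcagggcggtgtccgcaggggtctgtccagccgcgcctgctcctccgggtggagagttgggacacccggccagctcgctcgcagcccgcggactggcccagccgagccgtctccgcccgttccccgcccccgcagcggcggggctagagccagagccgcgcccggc
IRAK2, chr3:10164669-10164918, plus strand: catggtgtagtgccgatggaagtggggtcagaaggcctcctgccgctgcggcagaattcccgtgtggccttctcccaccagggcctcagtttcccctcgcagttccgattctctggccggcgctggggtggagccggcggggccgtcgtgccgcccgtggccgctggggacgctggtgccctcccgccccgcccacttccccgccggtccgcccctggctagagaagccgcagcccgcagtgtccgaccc

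The *IL1A* window held an AP-1 match that began 12 bases before the start and a TATAAA match 239 bases before it, and the *IL1B* window held a C/EBP-like match 215 bases before it. The *IL1R1* and *IRAK2* windows held none of the 5 motifs, and neither did the canonical windows of *IL1RAP* and *IL33*. That of *IL1RN* held an NF-κB-like match 97 bases and overlapping TATAAA matches 32 and 30 bases before the start, and that of *IL1RL1* a TATAAA match 29 bases before it. The 4 windows differed in base composition: G and C made up 37.6% of the *IL1A* and 40% of the *IL1B* window, with 7 and 1 CpG dinucleotides, against 76.8% and 72% with 31 and 24 CpG in *IL1R1* and *IRAK2*. The median over all windows was 58% with 11 CpG. The canonical window of *IL1RAP*, which was also expressed in DMSO, had 74.8% and 33 CpG, while those of *IL1RN*, *IL33* and *IL1RL1* had 48.4%, 42.4% and 33.6%. Windows of other annotated starts differed from the canonical ones. Those of *IL1R1* had 52.4%, 50% and 39.6% G and C, and the last held TATAAA matches. Other starts of *IL1A*, *IL1RN* and *IL1RL1* had windows with AP-1 matches. Which start was used was not measured. A match is a description of letters and not a measured binding site.

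*IL1RN*, the natural antagonist, was nearly undetected in all groups. The 5 DMSO libraries together held 2 counts, the 6 libraries of 4OHT siNT held 27, from 1 to 12 a library, and the 6 siSMARCA4 libraries held 11, from 0 to 6. With so few counts the gene failed the filter, and its ratios were given with exact intervals that cover counting error only. The level in 4OHT siNT was 12.4 times that in DMSO (95% interval 3.13 to 108), and the level in siSMARCA4 was 0.376 times that in 4OHT siNT (0.168 to 0.784). Of the 27 counts in 4OHT siNT, 20 came from libraries 2-2VM and 4-2VM, which held 8 and 12.

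Because the agonists rose far more than the antagonist, the ratio of *IL1RN* to *IL1A* plus *IL1B*, taken per kilobase within each library with 0.5 counts added, fell. Its log2 mean was -6.25 ± 1.20 (SD, n = 5) in DMSO and -14.00 ± 0.88 (SD, n = 6) in 4OHT siNT, a difference of -7.75 (exact 2-sided permutation test, adjusted p 0.00325 over 3 comparisons, from the smallest p the design allows, 0.00217). With no *IL1RN* count in 3 DMSO libraries and 1 count in each of the others, the DMSO value was set largely by the added 0.5 counts, and the difference restates the rise of the agonists. In siSMARCA4 the mean was -15.24 ± 0.88, lower than in 4OHT siNT by -1.23 (exact permutation adjusted p 0.0455). This second call rested on few counts as well: the adjusted p rose to between 0.0628 and 0.0996 without siNT library 2-1VM, 2-2VM or 4-2VM, or without siSMARCA4 library 2-1VM, 2-3V or 4-3V, and within VM libraries the difference was -0.97 (adjusted p 0.202).

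In the 4OHT groups *IL33* and its receptor *IL1RL1* stood at far lower levels than *IL1A* and *IL1B*, and both had their lower values in DMSO. There *IL1RL1* averaged 0.134 CPM and *IL1A* 0.106 CPM, with overlapping ranges. *IL33* (chr9:6215786-6257983, plus strand) had 0, 0, 0, 3 and 1 counts in the DMSO libraries, where both libraries with counts carried siRNA number 4, and 6 to 29 counts, or 0.157, 0.333 and 0.527 CPM as low, median and high, in 4OHT siNT. Every 4OHT library was above every DMSO library. The fitted log2 difference of 4.34 (SE 0.75, adjusted p 7.25e-05) stands on 4 counts in DMSO and on a filter passed only through 4OHT. Its size is therefore loose: it ran from 4.01 without DMSO library 2-2VM to 5.63 without DMSO library 4-2VM. *IL1RL1* (chr2:102311502-102352037, plus strand) measured 0.105, 0.159, 0.139, 0.116 and 0.151 CPM in DMSO and 0.327, 0.896 and 1.44 CPM as low, median and high in 4OHT siNT. Its groups did not overlap either, and the fitted log2 difference was 2.75 (SE 0.43, adjusted p 2.52e-05). At 6 to 9 counts a DMSO library it too passed the filter only through 4OHT, so that call is a description. *IL1RL1* overlaps *IL18R1* on the same strand, with annotated starts 27 bases apart, so reads from their shared first exons could be split between the 2 genes and the level of *IL1RL1* is uncertain.

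The receptor for IL-1 itself changed little with RAS. *IL1R1* (chr2:102064544-102179874, plus strand) measured 58.4, 39.4, 39.3, 42.2 and 29.03 CPM in DMSO and 44.8, 47.5 and 55.1 CPM as low, median and high in 4OHT siNT. The groups overlapped, and the log2 difference of 0.21 (SE 0.18, interval of 2 SE from -0.14 to 0.56, adjusted p 0.334) was not called. With VM libraries alone it was 0.36 (adjusted p 0.0104), and without DMSO library 2-1V alone, the highest of its group, it was 0.34 (adjusted p 0.111). The accessory chain *IL1RAP* (chr3:190514051-190659750, plus strand) rose by 0.57 on the log2 scale (SE 0.18, adjusted p 0.0132), from 4.96, 5.12, 6.56, 4.69 and 3.73 CPM in DMSO to 5.71, 7.29 and 9.59 CPM as low, median and high. Its groups overlapped, and its call was lost with siRNA number 4 libraries alone (0.47, adjusted p 0.0614) or VM libraries alone (0.55, adjusted p 0.0677).

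*IRAK2*, which carries the signal from the receptor complex to TRAF6 and sustains the later NF-κB response, kept its 3 groups apart. It (chr3:10164919-10243745, plus strand) measured 11.2, 11.5, 12.1, 12.5 and 11.7 CPM in DMSO, 44.7, 50.6 and 65.2 CPM as low, median and high in 4OHT siNT, and 68.5, 76.3 and 85.1 CPM in 4OHT siSMARCA4. No library of one group reached the range of another. The rise with RAS was 4.39-fold (log2 2.14, SE 0.09, adjusted p 1.15e-12), and siSMARCA4 added 1.48-fold (log2 0.57, SE 0.08, adjusted p 0.000116). Of the 7 tested members 5 did not overlap between 4OHT siNT and DMSO, against 39.6% of all genes tested, and 2, *IRAK2* and *IL1R1*, did not overlap between siSMARCA4 and 4OHT siNT, against 12%. The count against DMSO is a description, since *IL1A*, *IL33* and *IL1RL1* passed the filter only through 4OHT.

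**Figure D2:**
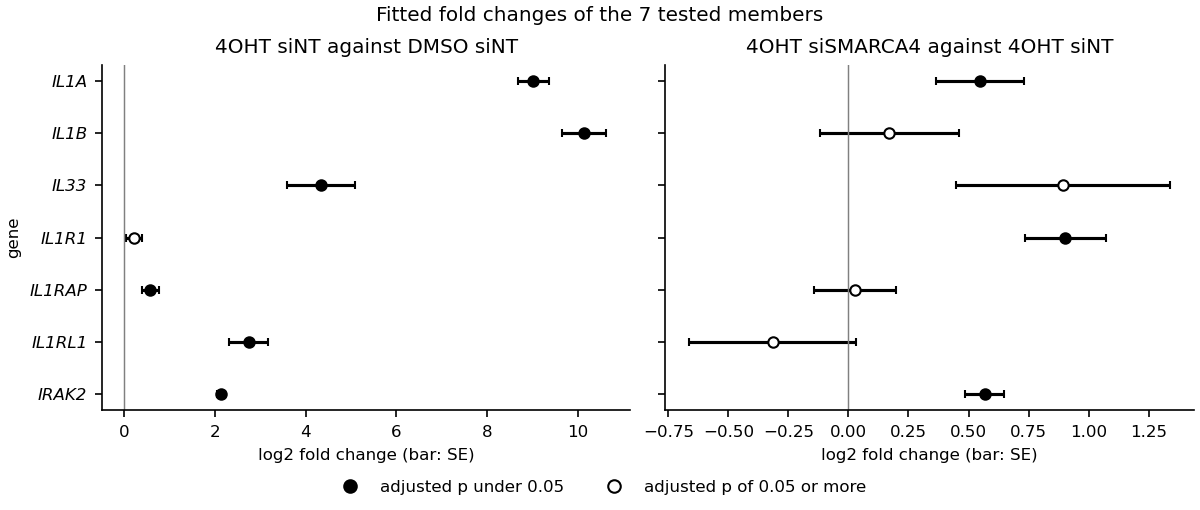
Fitted log2 fold changes of the 7 tested members with their standard errors, for 4OHT siNT against DMSO siNT on the left and 4OHT siSMARCA4 against 4OHT siNT on the right, on separate x axes; filled points had an adjusted p under 0.05. The ligands reach 10.14 on the left, whereas on the right the called members, *IL1A*, *IL1R1* and *IRAK2*, lie between 0.55 and 0.90. Both panels use the 4OHT siNT libraries, which were all VM, while the siSMARCA4 libraries were V and VM.

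In siSMARCA4 against 4OHT siNT 3 of the 7 tested members were called higher and 0 lower, where 24.2% of all genes were called in either direction, 10.4% higher and 13.8% lower. The siNT libraries were all VM and the siSMARCA4 libraries V and VM, so this comparison mixes the knockdown with the tag letters. *IL1R1* rose most, by 0.90 on the log2 scale (1.87-fold, SE 0.17, adjusted p 0.000974), with 60.1, 92.8 and 115.8 CPM as low, median and high in siSMARCA4. *IL1A* rose by 0.55 (SE 0.18, adjusted p 0.0366), with 57.6, 79.2 and 122.8 CPM. *IL1B* differed by 0.17 (SE 0.29, 2 SE interval -0.41 to 0.75, adjusted p 0.723) and *IL1RAP* by 0.03 (SE 0.17, interval -0.32 to 0.37, adjusted p 0.935). *IL33* was 0.89 higher (SE 0.45, adjusted p 0.157) and *IL1RL1* 0.32 lower (-0.32, SE 0.35, adjusted p 0.558), neither past the threshold. Against DMSO, all 7 tested members were higher in siSMARCA4 (55.1% of all genes were called in either direction, 26.5% higher and 28.6% lower), from 0.60 for *IL1RAP* to 10.32 for *IL1B* on the log2 scale, with *IL1R1* at 1.11 (SE 0.18, adjusted p 3.15e-05). The libraries of 6 of the 7 did not overlap with DMSO, against 36.3% of all genes. Because *IL1A*, *IL33* and *IL1RL1* passed the filter only through 4OHT, both counts against DMSO are descriptions and support nothing about the set.

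The *IL1A* call was the least stable of the 3. It was lost with siRNA number 2 libraries alone (0.44, adjusted p 0.128), with number 4 alone (0.69, adjusted p 0.0682), with VM alone (0.11, adjusted p 0.610) and with V or VM as a covariate (0.12, adjusted p 0.628). It was also lost without siNT library 2-1VM, 2-2VM, 2-3VM or 4-1VM, or siSMARCA4 library 2-3V, 4-2V or 4-3V, at adjusted p values from 0.0594 to 0.0876. The *IL1R1* call was lost with siRNA number 4 libraries alone (0.76, adjusted p 0.0887), and the *IRAK2* call was kept under every alternative tried.

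The siSMARCA4 libraries of *IL1B* fell into 2 ranges that followed the tag letters. The 3 VM libraries measured 506.5, 507.2 and 619.4 CPM and the 3 V libraries 1262, 1778 and 1318 CPM. All 3 VM libraries lay below the 4OHT siNT range of 694.5 to 1270 CPM, and 2 of the 3 V libraries lay above it. *IL1A* showed the same split, at 57.6, 57.9 and 69.01 CPM in VM and 89.4, 122.8 and 108.2 CPM in V. *IL1R1* split the other way, at 115.8, 107.6 and 113.5 CPM in VM and 78.1, 66.0 and 60.1 CPM in V. In tests added after these values were seen, V exceeded VM by 1.42 for *IL1B* (SE 0.26, adjusted p 0.00627) and by 0.80 for *IL1A* (SE 0.18, adjusted p 0.0248), and *IL1R1* was lower in V (-0.72, SE 0.15, adjusted p 0.0136). These are 3 of 7 members, 2 higher and 1 lower in V, against 3.7% of all genes, 2.28% higher and 1.42% lower. The *IL1B* difference was called without any 1 of the 6 libraries (adjusted p at most 0.044). That of *IL1A* was lost without 2-1VM, 2-3VM, 4-2V or 4-3V (adjusted p 0.074 to 0.139), and that of *IL1R1* without 2-1VM, 4-2V or 4-3V (0.0578 to 0.0725).

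*IRAK2* did not split: 73.4, 68.5 and 85.1 CPM in VM against 79.1, 81.7 and 73.0 CPM in V (difference 0.04, SE 0.12, 2 SE interval -0.19 to 0.28, adjusted p 0.885). *SMARCA4* did, at 68.98, 78.3 and 68.4 CPM in VM and 103.4, 126.6 and 82.7 CPM in V (0.54, SE 0.12, adjusted p 0.0201). Set against the 4OHT siNT libraries, which were all VM, it was 3.73-fold lower in VM and 2.57-fold lower in V libraries. Without a siNT V library the depth of the knockdown in V is not known. In DMSO *SMARCA4* averaged 179.9 CPM in V and 210.5 CPM in VM (-0.23, SE 0.13, edgeR adjusted p 0.476). Its V against VM difference in siSMARCA4 minus that in DMSO was 0.76 (SE 0.18, edgeR adjusted p 0.0455). In DMSO, V and VM differed by 0.21 for *IL1B* (SE 0.44), 0.25 for *IL1A* (SE 0.66) and 0.41 for *IL1R1* (SE 0.17), with 0 of 7 members called by edgeR at an adjusted p under 0.05, against 0.765% of all genes (0.411% higher, 0.354% lower). Of these, *IL1R1* had an unadjusted p under 0.05, but the share of all genes at that threshold was not counted. The V against VM difference in siSMARCA4 minus that in DMSO passed the test for *IL1R1* (-1.13, SE 0.22, adjusted p 0.0227, against 1.27% of all genes, 0.729% higher and 0.539% lower) but not for *IL1B* (1.21, SE 0.51, adjusted p 0.326) or *IL1A* (0.54, SE 0.70, adjusted p 0.898). The *IL1R1* value was not called without DMSO library 2-1V (-0.82, adjusted p 0.194) or siSMARCA4 library 2-1VM, 4-2V or 4-3V (adjusted p 0.0524 to 0.0663). The DMSO V libraries, 2-1V and 2-2V, both carried siRNA number 2, while the VM libraries were 2-2VM, 4-2VM and 4-3VM. The DMSO differences, and the differences from DMSO built on them, therefore mix tag letters with siRNA number.

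**Figure D3:**
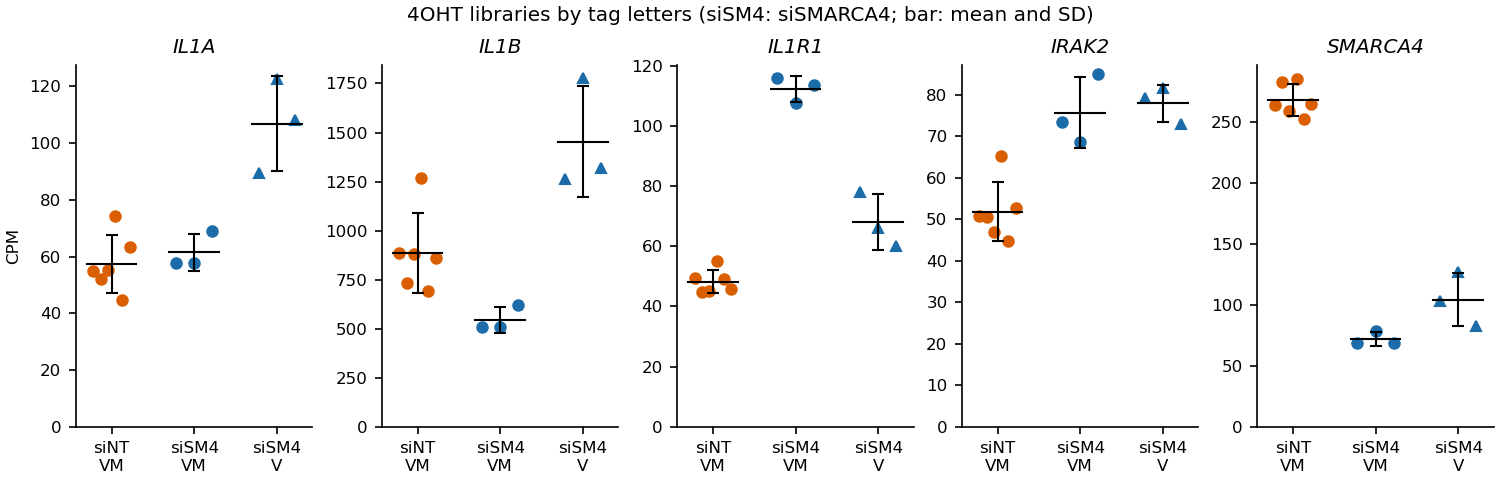
CPM of 4 members and of *SMARCA4* in the 4OHT libraries, split by tag letters into siNT VM (n = 6), siSMARCA4 VM (n = 3) and siSMARCA4 V (n = 3), with bars for mean and SD. *IL1B* lies at 506.5 to 619.4 CPM in siSMARCA4 VM and 1262 to 1778 CPM in siSMARCA4 V, *IL1R1* is higher in VM than in V, and *IRAK2* is alike in both.

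Set against the 4OHT siNT libraries, which were all VM, the VM and the V libraries of siSMARCA4 gave different values for the ligands. The VM libraries gave -0.70 for *IL1B* (SE 0.23, adjusted p 0.0279), 0.10 for *IL1A* (SE 0.16, adjusted p 0.705), 1.22 for *IL1R1* (SE 0.13, adjusted p 4.65e-06) and 0.55 for *IRAK2* (SE 0.10, adjusted p 0.000745), where 27.4% of all genes were called, 11.7% higher and 15.7% lower. The V libraries gave 0.71 for *IL1B* (SE 0.21, adjusted p 0.0383), 0.89 for *IL1A* (SE 0.15, adjusted p 0.00175), 0.50 for *IL1R1* (SE 0.13, adjusted p 0.0179) and 0.59 for *IRAK2* (SE 0.10, adjusted p 0.00155), where 12.1% were called, 5.11% higher and 7.03% lower. *IL1R1* and *IRAK2* were thus higher in both sets, and *IL1B* was lower in VM and higher in V. No V library of 4OHT siNT was among the 17, so for V libraries the tag letters and the knockdown cannot be told apart.

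The balance between the agonists moved with the same split. Per kilobase, *IL1B* was 9.07 to 11.4 times *IL1A* in the 4OHT siNT libraries, 5.87 to 6.02 times in the siSMARCA4 VM libraries and 8.16 to 9.71 times in the siSMARCA4 V libraries. The VM libraries lay below every siNT library, while the V libraries overlapped them. In DMSO, on a few counts of *IL1A* a library, it was 3.203 to 8.04 times.

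The siRNA number divided the members at low levels. In 4OHT siNT *IL1RAP* measured 8.61, 9.59 and 8.35 CPM with number 2 and 5.71, 6.12 and 6.23 CPM with number 4, and in siSMARCA4 it measured 6.61, 6.12 and 5.56 CPM with number 2 and 8.08, 10.6 and 8.47 CPM with number 4. The order was thus turned round, and the siSMARCA4 against siNT difference with number 4 minus that with number 2 was 1.13 on the log2 scale (SE 0.20, adjusted p 0.0183; 1 of 7 members, against 1.06% of all genes, 0.935% higher and 0.128% lower). With number 2 libraries alone *IL1RAP* was lower in siSMARCA4 (-0.50, adjusted p 0.0207), and with number 4 alone it was higher (0.63, adjusted p 0.0494). The difference was not called without siNT library 2-2VM, 2-3VM, 4-1VM or 4-2VM or siSMARCA4 library 2-3VM (adjusted p 0.0601 to 0.0751). Of the siSMARCA4 libraries, 1 of 3 was V with number 2 and 2 of 3 with number 4.

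*IL33* and *IL1RL1* kept 1 order by siRNA number in both 4OHT groups, with opposite signs. *IL33* measured 0.192, 0.249 and 0.157 CPM with number 2 and 0.417, 0.527 and 0.473 CPM with number 4 in siNT, and 0.217, 0.544 and 0.254 against 1.32, 0.624 and 0.792 CPM in siSMARCA4. *IL1RL1* measured 0.997, 1.41 and 1.44 CPM with number 2 and 0.527, 0.327 and 0.795 CPM with number 4 in siNT, and 0.967, 1.15 and 0.920 against 0.293, 0.684 and 0.406 CPM in siSMARCA4. The ranges of the 2 numbers did not overlap in either group, but the share of all genes without such overlap was not counted. In tests added after these values were seen, number 4 against 2 within siNT was called for *IL1RL1* (-1.22, SE 0.33, adjusted p 0.0477) and for *IL1RAP* (-0.56, SE 0.14, adjusted p 0.0366), 2 of 7 members against 4.68% of all genes, 1.16% higher and 3.52% lower. For *IL33* it was 1.22 (SE 0.43, adjusted p 0.121). Both calls were weak: *IL1RL1* was called only without 2-1VM or 4-3VM and *IL1RAP* only without 2-1VM among the 6 fits that left out a siNT library (adjusted p otherwise 0.0558 to 0.227). Within siSMARCA4 0 of 7 members were called by edgeR at an adjusted p under 0.05, against 0.293% of all genes (0.169% higher, 0.123% lower), with *IL33* at 1.43 (SE 0.39, adjusted p 0.139) and *IL1RL1* at -1.15 (SE 0.34, adjusted p 0.150). In DMSO 0 of 7 were called by edgeR, against 0.108% of all genes (0.0257% higher, 0.0822% lower). An unadjusted p under 0.05 was reached by 4 members in siSMARCA4 and 2 in DMSO, but the share of all genes at that threshold was not counted. In DMSO both V libraries carried number 2 and all libraries with number 4 were VM, so siRNA number and tag letters are mixed. In siSMARCA4 they are partly mixed, as more libraries with number 4 than with number 2 were V. There *IL33* averaged 0.885 CPM in V and 0.365 CPM in VM libraries, and *IL1RL1* 0.615 and 0.857 CPM.

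**Figure D4:**
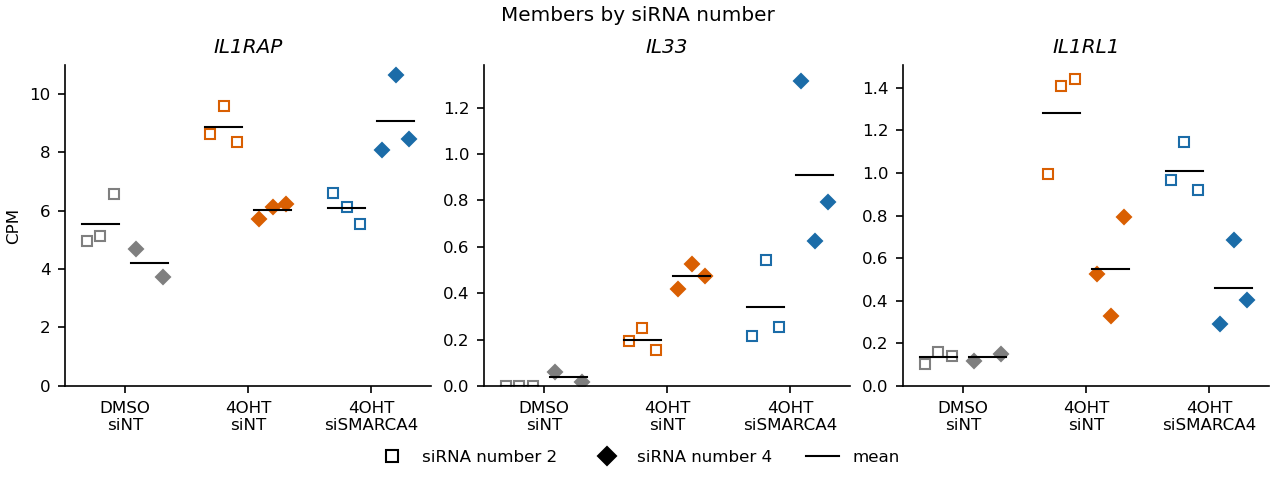
CPM of *IL1RAP*, *IL33* and *IL1RL1* in the 3 groups, split by the siRNA number of the label (open squares for 2, filled diamonds for 4, lines at the means). *IL1RAP* is higher with number 2 in siNT and higher with number 4 in siSMARCA4, whereas *IL33* is higher and *IL1RL1* lower with number 4 in both 4OHT groups.

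Counts on repeats inside the members gave a second readout of the same loci. Repeat loci that lie in a gene but outside its exons are mostly intronic. Reads on them can come from unspliced RNA, from the repeats themselves or from overlapping genes. Loci of both strands were summed and exons of other genes were not excluded, so these sources were not separated. *IRAK2* held 238 such loci, 138 of them with counts, and the leading one, a MIRb element, took 6.11% of the counts. Their sum rose from 0.633 ± 0.214 CPM (SD, n = 5) in DMSO to 2.12 ± 0.223 (SD, n = 6) in 4OHT siNT and 4.06 ± 0.743 in siSMARCA4, without overlap between any 2 groups (exact permutation adjusted p 0.00928 for each, over 15 tests). The second step was 1.92-fold. *IL1R1* went from 0.164 ± 0.105 CPM in 4OHT siNT to 0.446 ± 0.152 CPM in siSMARCA4 (exact permutation adjusted p 0.0108, groups overlapping), and was 0.191 ± 0.0776 CPM in DMSO. Repeats in *IL1A* held 0 to 3 counts a DMSO library and 7 to 22 in 4OHT siNT, and those in *IL1B* held 0 in DMSO and 5 to 22 in 4OHT siNT. Both genes had enough counts to be tested only through the 4OHT groups, so their tests against DMSO are no support for a rise. They did not pass between siSMARCA4 and 4OHT siNT (0.252 ± 0.167 against 0.294 ± 0.106 CPM for *IL1A* and 0.133 ± 0.109 against 0.250 ± 0.121 CPM for *IL1B*, exact permutation adjusted p 0.699 and 0.138). *IL1RAP* passed in no comparison, and the other 3 members had too few counts. Taken as a percentage of exon counts instead, *IRAK2* stood at 5.37 ± 1.88%, 4.13 ± 0.559% and 5.27 ± 0.751% in DMSO, 4OHT siNT and siSMARCA4. For *IRAK2* that percentage did not pass between siSMARCA4 and 4OHT siNT (exact permutation adjusted p 0.0704).

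*IL1A*, *IL1B*, *IL1RN*, *IL1R1* and *IL1RL1* sit in 2 clusters on chromosome 2 with other genes of the family, most of which were close to silent. Of 8 other genes listed with the ligands and 7 other receptor genes of the family, 2 and 4 were tested. The 2 were the antagonist *IL36RN* and *IL18BP*, which encodes the IL-18 binding protein and not a ligand, so no other agonist was tested. Of the genes tested 1 and 3 were called higher and 0 and 1 lower in 4OHT siNT than in DMSO, where 54.4% of all genes were called. In siSMARCA4 against 4OHT siNT 0 and 2 were called higher and 0 and 2 lower, where 24.2% of all genes were called. In the ligand cluster, between *IL1A* and *IL1RN*, *IL36A* and *IL1F10* had no count in any library, and *IL36B*, *IL36G* and *IL37* never passed 0.109, 0.0592 and 0.0580 CPM. *IL36RN*, the antagonist of the IL-36 receptor, was the exception: it was at 0 in 4 of 5 DMSO libraries, at 0.209 to 0.549 CPM in 4OHT siNT and at 0.0986 to 0.571 CPM in siSMARCA4. With 4 counts in all of DMSO it passed the filter only through the 4OHT groups, and its call against DMSO is no support for a rise. In the receptor cluster, the decoy receptor *IL1R2* stayed at or under 0.183 CPM and *IL18RAP* at or under 0.131 CPM. *IL1RL2*, the IL-36 receptor, measured 0.199 ± 0.0481 CPM in DMSO, at 8 to 14 counts a library and so too few to pass the filter there, and 0.501 ± 0.0742 CPM in 4OHT siNT, and fell to 0.322 ± 0.0870 CPM in siSMARCA4 (-0.63, SE 0.21, adjusted p 0.0389). *IL18R1*, next to *IL1RL1*, rose from 0.953 ± 0.255 to 2.41 ± 0.423 CPM and on to 5.87 ± 2.71 CPM in siSMARCA4 (1.28, SE 0.28, adjusted p 0.00266), with 7.18 to 8.72 CPM in the VM and 2.454 to 5.63 CPM in the V libraries.

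Outside the clusters, *IL18* held 0.0698 to 0.453 CPM in DMSO and had counts in only 1 of 6 libraries of each 4OHT group. *SIGIRR*, which restrains IL-1 receptor signalling, fell from 8.37 ± 1.29 to 4.11 ± 0.962 CPM with 4OHT (-1.02, SE 0.17, adjusted p 4.01e-05) and was at 7.42 ± 1.53 CPM in siSMARCA4 (0.85 against 4OHT siNT, SE 0.16, adjusted p 0.00115). *IL1RAPL1*, an IL1RAP-like protein known from neurons, rose from 4.74 ± 0.887 to 20.05 ± 2.87 CPM (2.08, SE 0.17, adjusted p 4.69e-09) and measured 12.9 ± 3.05 CPM in siSMARCA4 (-0.63, SE 0.15, adjusted p 0.00513).

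Downstream of the receptor, 20 signalling genes were tested, and 8 were higher and 3 lower in 4OHT siNT than in DMSO, with a median log2 change of 0.09. These 11 of 20 were near the 54.4% called over all genes. The ubiquitin ligase gene *PELI1* (1.54, SE 0.15), the inhibitory kinase-like *IRAK3* (1.37, SE 0.28) and the scaffold *SQSTM1* (1.06, SE 0.13) rose, and *IRAK4*, the first kinase of the complex, fell (-1.43, SE 0.10, from 25.3 to 9.39 CPM, adjusted p 6.83e-10). In siSMARCA4 against 4OHT siNT, 3 were higher and 4 lower, where 10.4% of all genes were higher and 13.8% lower. Only *CHUK*, the IκB kinase α (0.31, SE 0.06, adjusted p 0.00122), and *IRAK1* (-0.30, SE 0.08, adjusted p 0.0118) did so without overlap between the groups. *MYD88* was among the genes called lower in both comparisons. It changed by -0.47 with 4OHT (SE 0.12, edgeR adjusted p 0.00246) and by -0.46 with siSMARCA4 (SE 0.11, edgeR adjusted p 0.00729, groups overlapping).

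Of 16 genes for processing and release, 12 were tested, and 4 were higher and 5 lower in 4OHT siNT (median -0.12), where 27% of all genes were higher and 27.4% lower. Among those that fell, *CASP1*, the caspase that cleaves the IL-1β precursor, went from 16.5 to 3.89 CPM (-2.09, SE 0.18, adjusted p 9.33e-09), *NLRP1*, a sensor that activates it, from 155.8 to 45.7 CPM (-1.77, SE 0.16), and *P2RX7*, the ATP-gated channel, from 1.15 to 0.116 CPM (-3.28, SE 0.41). *P2RX7* lay under the filter in 4OHT siNT, so the size of its difference is loose. *NINJ1*, which ruptures the membrane of dying cells, rose from 35.4 to 81.9 CPM (1.21, SE 0.10), and *CASP4*, another inflammatory caspase, rose from 43.3 to 93.96 CPM (1.12, SE 0.07, adjusted p 7.69e-11). In siSMARCA4 against 4OHT siNT 0 of the 12 were higher and 2 lower, near the 13.8% of all genes that were lower, and of these the pore-forming *GSDME* did not overlap (-0.41, SE 0.08, adjusted p 0.00114).

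Genes known to respond to IL-1 were mostly higher in 4OHT. Of 30 listed genes 29 were tested, and 27 were higher and 1, *VCAM1*, lower in 4OHT siNT than in DMSO (27% and 27.4% of all genes), with a median of 3.65. The largest were *CSF3* (10.48, SE 0.63), which encodes the granulocyte growth factor G-CSF, and the chemokines *CCL20* (10.47, SE 0.67), *CXCL1* (8.92, SE 0.48) and *CXCL5* (8.77, SE 0.36). *CSF3* and *CCL20* averaged 0.0468 and 0.0103 CPM in DMSO, with 2 and 3 of 5 libraries at 0, and passed the filter only through 4OHT, so their folds and their place in the order are loose. *CXCL6*, *CCL7* and *CSF2*, at means of 0.0931, 0.125 and 0.168 CPM in DMSO, were also close to undetected there, so the count against DMSO is a description. In siSMARCA4 against 4OHT siNT 16 of the 29 were higher and 0 lower (10.4% and 13.8% of all genes), with a median of 0.62 against -0.02 over all genes. The prostaglandin synthase *PTGES* (2.16, SE 0.29, adjusted p 6.6e-05), the apoptosis inhibitor *BIRC3* (1.84, SE 0.12, adjusted p 5.5e-08), the cyclo-oxygenase *PTGS2* (1.61, SE 0.17, adjusted p 8.38e-06) and the chemokine *CXCL2* (1.47, SE 0.26, adjusted p 0.000612) led those whose groups did not overlap. Other inducers such as TNF act on the same genes, so the list is not specific to IL-1. The list was also chosen with earlier results of these data known, so the count in siSMARCA4 against 4OHT siNT is a description too.

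**Figure D5:**
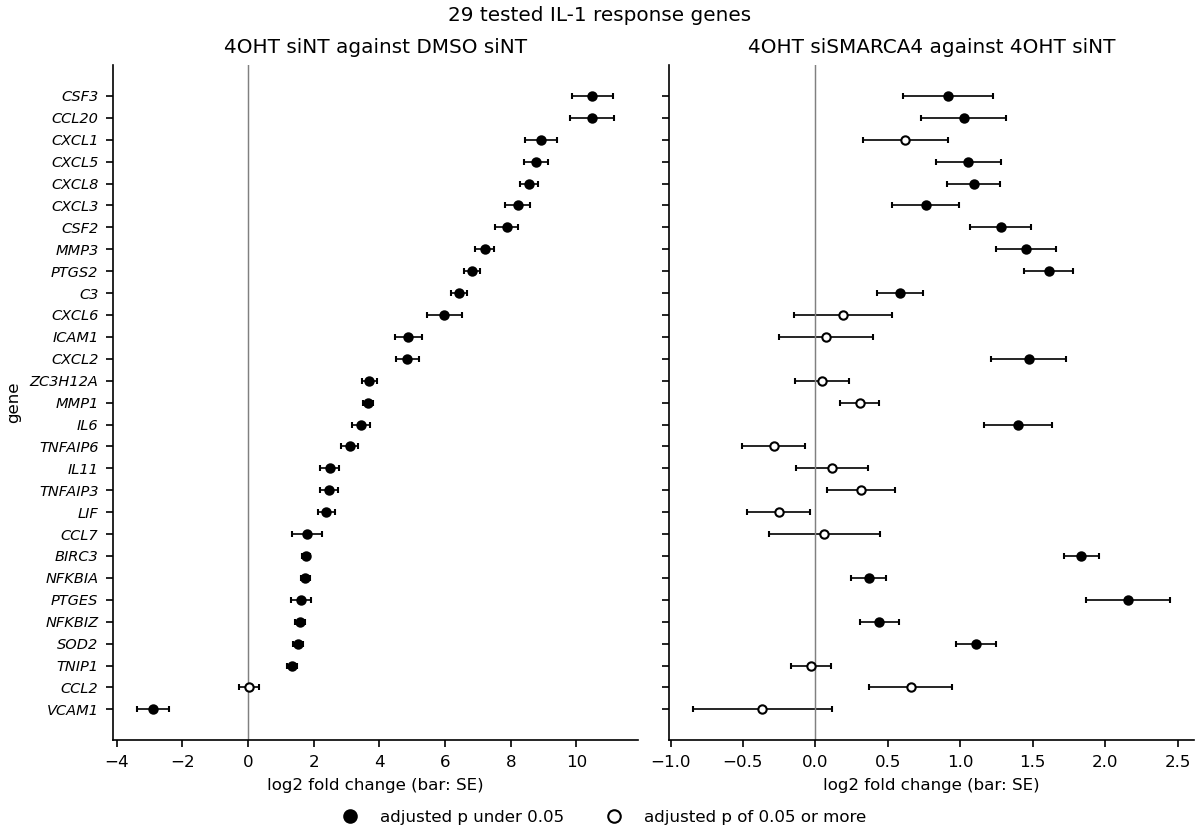
Fitted log2 fold changes with standard errors of the 29 tested IL-1 response genes, ordered by the left panel (4OHT siNT against DMSO siNT); the right panel shows 4OHT siSMARCA4 against 4OHT siNT on its own x axis, and filled points had an adjusted p under 0.05. On the left 27 genes are called higher and *VCAM1* lower, on the right 16 are called higher, led by *PTGES* at 2.16.

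The response genes were then read by tag letters. In the VM libraries of siSMARCA4 against 4OHT siNT, 12 of 29 were higher and 1, *CCL2*, lower (11.7% and 15.7% of all genes, median 0.21), with *PTGES* at 2.42 (SE 0.27), *BIRC3* at 1.88 (SE 0.11) and *MMP3* at 1.53 (SE 0.18) largest. Within siSMARCA4, V exceeded VM in 6 of 29 and was lower in 0 (2.28% and 1.42% of all genes), led by *CCL2* (1.57, SE 0.13, adjusted p 1.02e-05), *CCL20* (1.46, SE 0.25, adjusted p 0.00399), *TNFAIP3* (1.03, SE 0.17, adjusted p 0.00399) and *CXCL3* (0.98, SE 0.21, adjusted p 0.0174). In DMSO, V exceeded VM in 4 of the 29 and was lower in 1 (0.411% and 0.354% of all genes), and the difference between the V against VM differences was called higher for 1 gene and lower for 1 (0.729% and 0.539% of all genes). Both DMSO V libraries carried siRNA number 2, so these counts mix tag letters with siRNA number. The V libraries of siSMARCA4 against 4OHT siNT gave 18 of 29 higher and 0 lower (5.11% and 7.03% of all genes, median 0.93).

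The genes whose profiles lay nearest to each member were found by the root mean square difference of centred log2 CPM over the 17 libraries, among 15150 genes with a mean of at least 1 CPM in a group. Nearest to *IL1A* were *CCL20* (0.341), *CXCL8* (0.386), *CXCL3* (0.528), *CXCL5* (0.577) and *CXCL1* (0.594). Nearest to *IL1B* were *CSF3* (0.554), *TNFSF15* (0.605), *IL1A* itself (0.645), *CCL20* (0.694) and *CXCL5* (0.788). For *IRAK2* they were *VEGFA* (0.149), *GK*, an unnamed gene, *CSGALNACT2* and *MT1X*, and for *IL1R1* they included *NFATC1*, *BVES*, *UAP1L1* and *ASAH1* (0.250). For *IL1RAP* they were *RRM2B* (0.164), *MXD1*, *ZNF28*, *PPP2R1B* and an unnamed gene. The low-level members had more distant neighbours, which included *NRG1* (0.595), *LUCAT1*, *GFPT2* and *SERPINB2* for *IL33*, and were *HECW2-AS1* (0.426), *H2AC25*, *TFAP2C*, *GLDC* and *EPHX4* for *IL1RL1*. The measure takes in the differences between the 3 groups, so genes with similar changes between groups lie near each other. It carries no test.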

How the data were processed

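For each library the authors deposited expected counts as whole numbers, without normalisation. Per the study's methods and the submitters' processing notes, reads were trimmed with cutadapt 4.7, aligned to GRCh38 with HISAT2 2.2.1 and counted by TElocal, stranded, with multi-mapped pairs shared out. The methods name an Ensembl annotation, but the tables held all 62700 gene IDs of GENCODE 44 and 54 others, so coordinates and exon lengths are from GENCODE 44. Library totals of 39109479 to 68978119 counts set the precision. Genes and counts summed per repeat subfamily were filtered together (edgeR 4.0.16 filterByExpr, minimum count 10, minimum total 15) and scaled by TMM. The quasi-likelihood test was fitted to all 17 libraries with 1 term per group, and p-values were adjusted by Benjamini-Hochberg over 19473 genes, with calls under 0.05. SE is the log2 fold change over the root of F. CPM used TMM-scaled totals. DESeq2 1.42.0 was an alternative. Ratios and repeat counts were tested by exact 2-sided permutation. The fit was tested on simulated data. Alternatives covered scaling, filter, tool, library subsets, covariates, a block for the tag and each library left out. The labels do not say whether libraries came from separate cultures, so p-values measure the spread between libraries. Members and lists were chosen with earlier results of these data known, and comparisons by tag letters or by siRNA number within a group were added after values were seen. Beside the members, at most 4 called, non-overlapping genes with the largest change were named per list and comparison, with the family genes of the chromosome 2 clusters and 5 nearest profiles. *VCAM1*, *CCL2*, *CASP4*, *CXCL6*, *CCL7*, *CSF2*, *IL18*, *IL18BP*, *MYD88* and the siSMARCA4 values of *SIGIRR* and *IL1RAPL1* were named outside that rule, after they were seen. Some of the nearest profiles are not reported here.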

Additional observations from a re-analysis of the deposited data

Results flagged for a closer look

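Among 24 sets of member and group, 2 held a library far from the others by Dixon's test, which chance does in about 1 of 20 sets. *IL1B* was at 1270 CPM in 4OHT siNT library 4-2VM against 694.5 to 885.1 CPM in the other 5 libraries. That library was also the highest of the 6 for *IL1A*, *IL1R1*, *IRAK2*, *IL33* and *IL1RN*. *IL33* was at 0.0581 CPM, or 3 counts, in DMSO siNT library 4-2VM against 0 to 0.0168 CPM in the other 4.

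A difference between sets of libraries was called for 2 members, and neither call held in every fit with 1 library left out. For *IL1RAP* the siSMARCA4 against siNT difference with siRNA number 4 was larger than that with number 2 by a log2 difference of 1.13 (SE 0.20, adjusted p 0.0183 in edgeR). It was lost in 5 of 12 such fits (adjusted p at most 0.0751), and siNT and siSMARCA4 libraries of the same number share only that number. For *IL1R1* the V against VM difference in 4OHT siSMARCA4 minus that in DMSO siNT was -1.13 (SE 0.22, edgeR adjusted p 0.0227), a comparison added after the values were seen. It was lost in 4 of 11 such fits (adjusted p at most 0.194), and in DMSO it mixes tag letters with siRNA number.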

How the results depend on the processing

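The count of members called by edgeR stayed within 1.5 times its value under every alternative in the 3 comparisons of groups, at 5 to 7 in 4OHT siNT against DMSO, 2 to 4 in siSMARCA4 against 4OHT siNT and 6 to 7 in siSMARCA4 against DMSO. Signs turned in 4OHT siSMARCA4 against 4OHT siNT for 2 uncalled members. *IL1B* went from 0.17 to -0.0754 with siRNA number 2 libraries alone, -0.69 with VM libraries alone (adjusted p 0.00723), -0.54 with V or VM as a covariate and -0.52 with the replicate block on the tag, and to 0.71 (adjusted p 0.0287) with V libraries of siSMARCA4, added after seeing the data. *IL1RAP* went from 0.03 to -0.50 with number 2 alone and -0.0183 with the replicate block. With 1 library left out *IL1B* ran from -0.0739 (without siSMARCA4 4-2V) to 0.31 and *IL1RAP* from -0.0932 to 0.11. Libraries of the same number and tag gave correlations of mixed sign, 0.117, 0.320 and -0.113 in this comparison. Those of 4OHT siNT against DMSO gave -0.389, -0.261 and 0.133, and siSMARCA4 against DMSO 0.032. So few pairs cannot tell whether libraries were paired. The block changed no call but that of *IL1A* (0.13, adjusted p 0.605). The *IL1RN* ratio missed the threshold with siRNA number 2 alone (-7.66, -1.69 and -9.36 for the comparisons in the order of the text and then siSMARCA4 against DMSO, adjusted p 0.1 each, where 3 against 3 cannot go below 0.1), with number 4 alone (-7.81, -0.77 and -8.59) and with VM alone for siSMARCA4 (-0.97 against 4OHT siNT and -9.06 against DMSO). With 1 library left out its difference between siSMARCA4 and 4OHT siNT ran from -1.46 to -1.01. The siRNA number difference then gave 0 to 1 members, V against VM in siSMARCA4 1 to 3, its difference from DMSO 0 to 1 and number 4 against 2 in siNT 0 to 2. Repeat tests passed, 4 of them for *IL1A* and *IL1B* against near-empty DMSO counts, fell from 9 to 2 relative to exon counts, both for *IL1B* against 0 counts in DMSO, which its depth there fixes, and ran from 9 to 10 with 1 library left out. Over all genes, siSMARCA4 against 4OHT siNT gave 4703 calls, 1198 with number 4 alone and 1793 with V libraries. The causes were not tested. Depth limits *IL1RN*, *IL33*, *IL1RL1* and, in DMSO, *IL1A*.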
